A study of Mus musculus with 12 samples.

Results

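The glucocorticoid receptor gene (Nr3c1) and 6 genes that the receptor is known to control or that control its ligand (Fkbp5, Tsc22d3, Sgk1, Zbtb16, Lpin1 and Hsd11b1) were followed in single-nucleus RNA sequencing of mouse liver. They were chosen by name, with earlier results of these data known, and all 7 were found among the 32285 genes of the count matrices. The nuclei came from wild-type male mice, young adults on chow, which the labels call C57BL6J and the study's methods C57BL/6NTac. From each of 8 mice there was 1 sample of whole liver tissue (Liver), 1 of cells released by collagenase perfusion of the liver (Cell Suspension) and 1 of cells plated on collagen and cultured for 24 h (Primary Hepatocytes), which gives 24 samples, 8 of each type. Same-numbered samples came from the same liver. No sample carried a transgene or a deletion, and all mice were sedated before perfusion. The Liver piece was taken after warmed, collagenase-free buffer had flushed out the blood, so it had been perfused too, but not with collagenase. The isolated cells were dispersed and washed in serum-containing medium before the Cell Suspension was taken, so both it and the Primary Hepatocytes had met serum. Only the Primary Hepatocytes had been given insulin and dexamethasone, a synthetic glucocorticoid, and were detached with trypsin-EDTA before freezing. Plating, time in culture, these additions and the detachment cannot be told apart in these data.

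Glucocorticoids, corticosterone in the mouse, enter the cell and bind the receptor, which waits in the cytoplasm in a complex with heat shock chaperones. The bound receptor moves to the nucleus, raises transcription of genes such as Fkbp5, Tsc22d3, Sgk1, Zbtb16 and Lpin1, and lowers transcription of many inflammatory genes. In the liver the same hormone drives gluconeogenesis during fasting and stress, and the enzyme encoded by Hsd11b1 regenerates active hormone from its inactive keto form inside the hepatocyte.

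RefSeq promoter windows, each spanning a transcription start, were matched by symbol for 5 of the 7 genes. They are shown because the receptor binds DNA as a dimer at a near-palindrome of 2 hexamers. The searched palindrome, GNACANNNTGTNC on both strands, occurs in 156 of 32851 mouse promoter windows (0.475%), and the hexamer AGAACA, on both strands and with overlap of a palindrome allowed, in 6233 (19.0%). Capitals below mark the palindrome in the Sgk1 window and the single hexamer, read on the other strand as TGTTCT, in the Tsc22d3 and Lpin1 windows. The Fkbp5 window held neither and has no capitals. Windows are written 5′ to 3′ on the strand of the gene: chr10:21993640-21993939 (plus strand), chrX:140600473-140600772, chr12:16610917-16611216 and chr17:28486100-28486399 (minus strand), all GRCm38.p6.
Sgk1: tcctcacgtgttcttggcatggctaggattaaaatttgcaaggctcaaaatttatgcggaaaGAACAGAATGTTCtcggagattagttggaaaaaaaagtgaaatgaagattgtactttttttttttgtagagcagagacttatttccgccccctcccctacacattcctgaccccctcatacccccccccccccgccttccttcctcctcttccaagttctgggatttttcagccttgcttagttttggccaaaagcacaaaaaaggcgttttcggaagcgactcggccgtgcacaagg
Tsc22d3: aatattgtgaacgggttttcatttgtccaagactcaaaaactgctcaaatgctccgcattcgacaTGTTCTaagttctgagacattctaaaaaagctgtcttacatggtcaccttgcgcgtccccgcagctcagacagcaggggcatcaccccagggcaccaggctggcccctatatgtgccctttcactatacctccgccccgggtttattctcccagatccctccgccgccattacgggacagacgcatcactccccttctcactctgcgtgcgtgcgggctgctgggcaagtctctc
Lpin1: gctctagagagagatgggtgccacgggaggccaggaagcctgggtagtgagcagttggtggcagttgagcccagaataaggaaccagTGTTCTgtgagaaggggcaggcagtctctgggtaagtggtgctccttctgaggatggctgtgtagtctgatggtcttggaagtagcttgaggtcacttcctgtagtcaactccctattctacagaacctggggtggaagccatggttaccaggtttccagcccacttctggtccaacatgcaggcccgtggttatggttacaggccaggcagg
Fkbp5: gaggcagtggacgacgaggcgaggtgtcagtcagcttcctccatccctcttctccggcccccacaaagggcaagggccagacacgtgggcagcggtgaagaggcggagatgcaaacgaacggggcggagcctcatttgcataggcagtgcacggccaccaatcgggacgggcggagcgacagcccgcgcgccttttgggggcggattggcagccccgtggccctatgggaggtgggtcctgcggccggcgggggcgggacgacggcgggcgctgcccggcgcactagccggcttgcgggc
The Sgk1 palindrome stood at bases 63 to 75 of 1 of the 6 Sgk1 windows, and that window held 3 hexamers, of which 2 overlap the palindrome. Of the other 5 Sgk1 windows, 2 held 1 hexamer each and 3 held none. The single Hsd11b1 window and the other 2 Tsc22d3 windows held neither motif. These matches describe letters in short windows and say nothing of binding.

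On the GRCm38 build, the annotated genes lie at 18:39410545-39519421 (Nr3c1), 17:28399094-28517527 (Fkbp5), X:140539528-140600659 (Tsc22d3), 9:48654297-48836222 (Zbtb16), 12:16535669-16610966 (Lpin1) and 1:193221634-193264075 (Hsd11b1), all on the minus strand, and at 10:21882184-21999903 on the plus strand (Sgk1). Fkbp5 overlaps AC154912.5 and AC154912.3 on its own strand and AC154912.1 and Gm22146 on the other. Hsd11b1 overlaps Gm38118 on its own strand and Lamb3 and 4930570N18Rik on the other. Whether the counting used strand is not given in the sources used here, so reads of Fkbp5 and Hsd11b1 cannot be told apart from those of their opposite-strand partners. Strand would not separate them from their same-strand partners in any case. The part of either kind of partner in the counts was not tested.

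The authors' table assigned 53467 nuclei to samples, of which 44788 were hepatocyte nuclei, 15166 from Liver, 13339 from Cell Suspension and 16283 from cultured samples. Another 5435 were endothelial, 1338 Kupffer, 1220 stellate, 401 leukocyte and 285 biliary nuclei. UMIs (counted RNA molecules) summed per sample ran from 2104087 to 29023569 over hepatocyte nuclei and from 95289 to 2578536 over endothelial nuclei. The 10 hepatocyte markers summed to 16086 to 26659 CPM (UMI counts scaled to the same total in every sample) in Liver hepatocyte nuclei. The sums were 18228 to 25650 in Cell Suspension and 2890 to 7230 in Primary Hepatocytes. That cultured range overlaps the 2735 to 6134 CPM of the same list in Liver endothelial nuclei, and all 10 markers had UMIs in both. These sums therefore do not set cultured hepatocyte nuclei apart from other types. The 24 samples were run in 6 pools of 4 samples, and only 2 pools held both Liver and Primary Hepatocytes. The first of these held Liver and Primary Hepatocytes of mouse 4, the other Liver of mouse 5 and Primary Hepatocytes of mice 3 and 8. Each shared pool thus held a single Liver sample, and its values cannot be told apart from the level of that mouse. In all, 337 barcodes occurred in more than 1 pool. A further 276 Primary Hepatocytes nuclei carried the annotation of uncultured cells, and 952 nuclei of the other sample types that of cultured cells.

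In hepatocyte nuclei, culture split the 7 genes by direction. Against Liver, Fkbp5, Sgk1 and Zbtb16 were higher in Primary Hepatocytes, whereas Nr3c1 itself, Tsc22d3, Lpin1 and Hsd11b1 were lower, so 7 of 7 passed the test (edgeR's quasi-likelihood test, Benjamini-Hochberg adjusted p under 0.05 over all genes), where 53.7% of all 26778 genes tested did. Against Cell Suspension 6 of 7 passed, 2 higher (Fkbp5 and Sgk1) and 4 lower, where 50.4% of all genes did. From Liver to Cell Suspension 0 of 7 passed with edgeR and 0 with DESeq2, where 22.3% of all genes did, and 1 gene (Lpin1) had an unadjusted p under 0.05. These fits leave out that both samples come from the same liver. With the mouse as replicate block 1 of 7 passed (Lpin1, edgeR adjusted p = 0.00413). That block is a term over all sample types, cultured included, so it does not test the Liver and Cell Suspension pairs alone. Within mice, Sgk1 (0.65 ± 0.34), Zbtb16 (0.54 ± 0.40) and Lpin1 were each higher in Cell Suspension in 8 of 8, and Tsc22d3 was lower in 8 of 8. With so many genes called, the share of these genes that passed is not itself a result, and the description that follows rests on sizes and directions. Levels below are CPM on TMM-scaled library sizes, and changes are log2 fold changes ± SE with n = 8 samples per type.

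Nr3c1, the receptor, was lower in cultured hepatocytes relative to other genes. Its level ran from 353 to 507 CPM in Liver (median 380), with 338 to 610 CPM and a median of 476 in Cell Suspension, and 189 to 339 CPM with a median of 249 in Primary Hepatocytes. Primary Hepatocytes did not overlap Liver, overlapped Cell Suspension only through the lowest Cell Suspension sample, and lay below both in the same mouse in 8 of 8 mice. The change was −0.65 ± 0.13 against Liver (edgeR adjusted p = 7.84e-05) and −0.87 ± 0.13 against Cell Suspension (1.23e-06). This fall depends on the scaling. Without TMM, on library totals alone, the median of all genes in the comparison with Liver moved from 0.10 to 0.66, the share of called genes that were higher in Primary Hepatocytes moved from 51.0% to 75.7%, and Nr3c1 stood at −0.09 (adjusted p = 0.430). Against Cell Suspension it stood at −0.17 without TMM (adjusted p = 0.131), where the median of all genes was 0.71. Relative to the median of all genes, Nr3c1 was at −0.75 with TMM and −0.74 without it. On spliced UMIs alone its change from Liver was −0.25 (adjusted p = 0.066).

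Fkbp5 encodes a co-chaperone that binds the receptor complex and lowers its affinity for hormone, a feedback arm of the pathway. In Liver hepatocyte nuclei it ran from 30.8 to 201 CPM (median 122), in Cell Suspension from 39.2 to 175 (median 97.0) and in Primary Hepatocytes from 139 to 481 (median 241). The cultured range overlapped both others, since mice 2, 3 and 5 had Liver levels of 162 CPM or more, but Primary Hepatocytes lay above Cell Suspension of the same mouse in 8 of 8 mice and above Liver in 7 of 8. Fkbp5 was 2.20-fold higher than in Liver (log2 1.13 ± 0.36, edgeR adjusted p = 0.00775) and 2.46-fold higher than in Cell Suspension (1.30 ± 0.36, adjusted p = 0.0029). Within the 2 pools that held Liver and Primary Hepatocytes the differences of log2(CPM + 1), the scale of all within-pool values here, were 2.77 and −0.14, and with pool as a covariate the change from Liver was 0.54 (adjusted p = 0.442). The single Liver samples of these pools, of mice 4 and 5, stood at 30.8 and 198 CPM. Against Cell Suspension all 4 pools with both types agreed in sign, from 0.32 to 2.40.

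Zbtb16, a zinc finger transcription factor of the BTB family, spread widely between uncultured mice and less between cultured samples. Liver ran from 125 to 1263 CPM (median 337), Cell Suspension from 293 to 1844 (median 564) and Primary Hepatocytes from 907 to 1663 (median 1202). Mice 2 and 8 stood at 1182 and 1263 CPM in Liver and at 1454 and 1844 in Cell Suspension, which is where the groups overlap. Zbtb16 was 2.35-fold higher than in Liver (1.23 ± 0.41, edgeR adjusted p = 0.0107), and 2.08 on the log2 scale with mice 2 and 8 left out. Against Cell Suspension it did not pass (0.70 ± 0.40, adjusted p = 0.156), but did with the mouse as replicate block (1.12, adjusted p = 0.000944), without mouse 8 (1.05, adjusted p = 0.0234) and on spliced UMIs (1.38, adjusted p = 0.000805). Within the pools holding Liver and Primary Hepatocytes the differences were 3.06 and 1.35, and with pool as a covariate the change was 1.02 (adjusted p = 0.247). Barcodes with under 100 UMIs, which hold mostly free RNA, had 373 to 1344 CPM of Zbtb16 by pool. All free RNA values here are CPM on library totals without TMM, so they cannot be set directly against TMM-scaled levels. The part of free RNA in the Zbtb16 levels was not tested.

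Sgk1, the serum- and glucocorticoid-regulated kinase, which acts downstream of insulin and the hormone on ion transport, was low in hepatocyte nuclei throughout. It ran from 2.49 to 14.71 CPM in Liver (median 7.26), 5.58 to 21.2 CPM in Cell Suspension (median 12.0), and 14.73 to 45.7 CPM after culture (median 24.5). The highest Liver sample and the lowest cultured sample nearly touch, and within mice Primary Hepatocytes lay above Liver in 8 of 8 and above Cell Suspension in 7 of 8. The increase was 3.49-fold over Liver (1.80 ± 0.33, edgeR adjusted p = 2.63e-05) and 2.23-fold over Cell Suspension (1.16 ± 0.33, adjusted p = 0.00424). Within pools the difference from Liver was 0.98 and 2.35, and that from Cell Suspension ran from −0.06 to 1.36 over 4 pools. Free RNA held 17.6 to 63.3 CPM of Sgk1 by pool on library totals without TMM. That was more than any Liver hepatocyte sample, which reached 13.8 CPM on such totals. The part of free RNA in these Sgk1 levels was not tested.

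**Figure D1:**
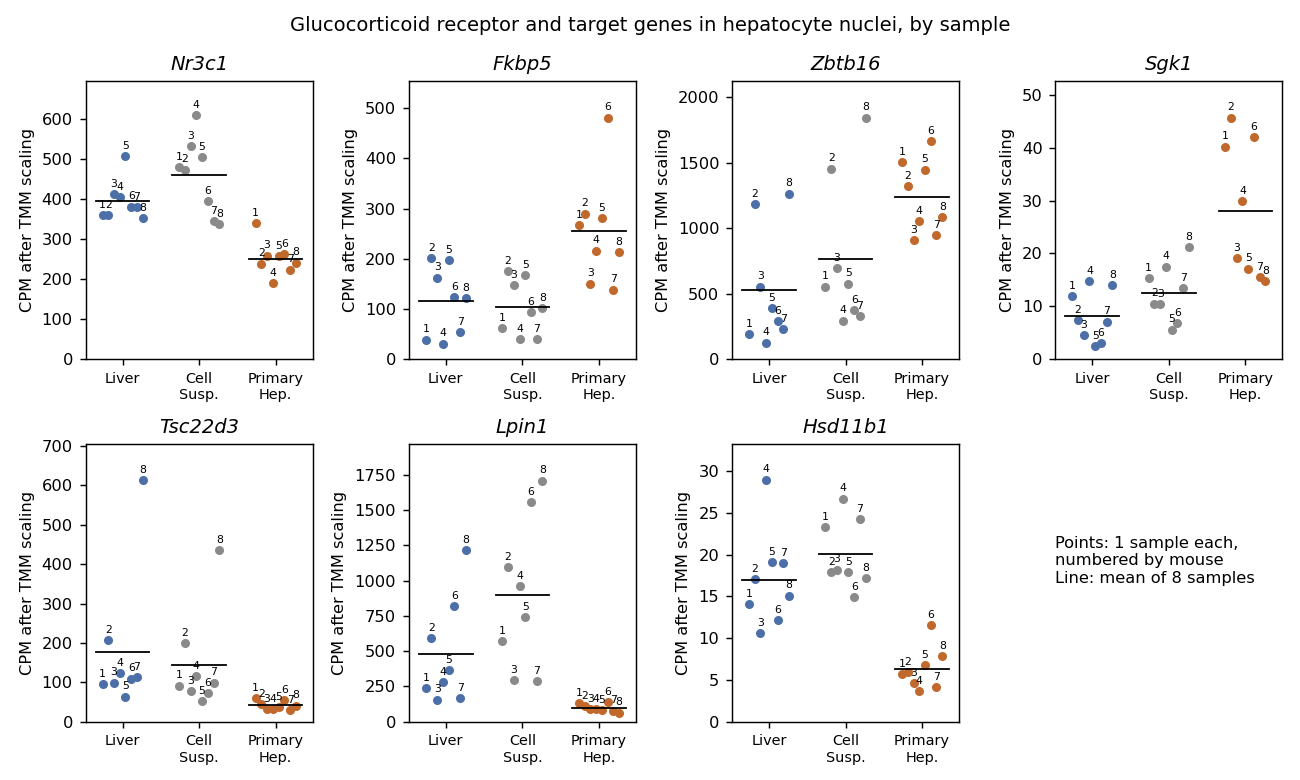
Levels of the 7 genes in hepatocyte nuclei, in CPM on TMM-scaled library sizes (vertical axis of each panel), for Liver, Cell Suspension and Primary Hepatocytes (horizontal axis). Each point is 1 sample, labelled by its mouse number, and the line is the mean of 8 samples. Fkbp5, Sgk1 and Zbtb16 were higher in Primary Hepatocytes than in Liver, the other 4 lower, and mouse 8 stood highest for Tsc22d3, Zbtb16 and Lpin1 in both uncultured sample types.

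Tsc22d3, which encodes the glucocorticoid-induced leucine zipper, an anti-inflammatory protein and a standard readout of the receptor, moved opposite to Fkbp5. Liver hepatocyte nuclei ran from 63.8 to 612 CPM (median 111), Cell Suspension from 52.1 to 435 (median 95.4) and Primary Hepatocytes from 29.2 to 59.3 (median 39.1). No cultured sample reached the lowest Liver sample, and within mice the cultured sample was the lowest of the 3 in 8 of 8. Cell Suspension in turn lay below Liver in 8 of 8 mice, by amounts that did not pass (−0.32 ± 0.40, edgeR adjusted p = 0.635). The fall from Liver was 4.29-fold (−2.10 ± 0.41, adjusted p = 5.6e-05) and that from Cell Suspension 3.44-fold (−1.78 ± 0.41, adjusted p = 0.000418). Mouse 8 carries part of the size, since without it the change from Liver was −1.48 (adjusted p = 1.06e-05), and without mice 2 and 8 it was −1.30.

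Lpin1 encodes lipin, a phosphatidic acid phosphatase that also acts as a coactivator of fat oxidation genes and is induced in the fasted liver. Of the 7 genes it had the largest fall after culture. Liver ran from 157 to 1217 CPM (median 324), Cell Suspension from 289 to 1710 (median 850) and Primary Hepatocytes from 65.1 to 139 (median 91.1). All 8 cultured samples lay below every uncultured sample, whereas Cell Suspension lay above Liver of the same mouse in 8 of 8 mice with wide overlap between the groups. The fall was 4.87-fold from Liver (−2.29 ± 0.39, edgeR adjusted p = 7.95e-06) and 9.16-fold from Cell Suspension (−3.20 ± 0.40, adjusted p = 5.58e-08). The step from Liver to Cell Suspension was 0.91 ± 0.37 (adjusted p = 0.0819). With the mouse as replicate block it was 0.99 (adjusted p = 0.00413), and without mouse 8 it was 1.07 (adjusted p = 0.0313), both past the threshold. Within pools that step ran from −0.13 to 2.00 over 4 pools, while the cultured samples stood at −1.61 and −2.24 against Liver in the 2 shared pools.

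Hsd11b1, the hormone-regenerating enzyme, was also lower after culture. All its UMIs were spliced or ambiguous, with 0 unspliced in every sample, and whether the authors' counting reference held an unspliced form is not given in the sources used here. Its CPM, over totals that do include unspliced RNA, are therefore not comparable in level with those of the other genes. They ran from 10.6 to 29.0 CPM in Liver (median 16.1), 14.9 to 26.7 in Cell Suspension (median 18.1) and 3.67 to 11.5 in Primary Hepatocytes (median 5.81). Only 1 cultured sample, that of mouse 6, reached into the Liver range, and none reached the Cell Suspension range. The fall was 2.70-fold from Liver (−1.43 ± 0.20, edgeR adjusted p = 4.42e-07) and 3.18-fold from Cell Suspension (−1.67 ± 0.21, adjusted p = 4.7e-08), and every pool with both types had the same sign. On spliced UMIs alone the changes were −1.20 (adjusted p = 1.72e-06) and −1.36 (adjusted p = 3.83e-07). Free RNA, on library totals without TMM, held 10.2 to 33.5 CPM of Hsd11b1 and 60.6 to 143 of Tsc22d3 by pool. For Lpin1 it held 221 to 661 CPM and for Nr3c1 288 to 363 CPM. Its part in the levels was not tested. Nr3c1 and Tsc22d3 were likewise lower than Liver in both shared pools (−1.10 and −1.02 for Nr3c1, −1.88 and −0.81 for Tsc22d3). All 7 genes still passed against Liver when any 1 mouse was left out, with the largest adjusted p at 0.0408 (Zbtb16).

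**Figure D2:**
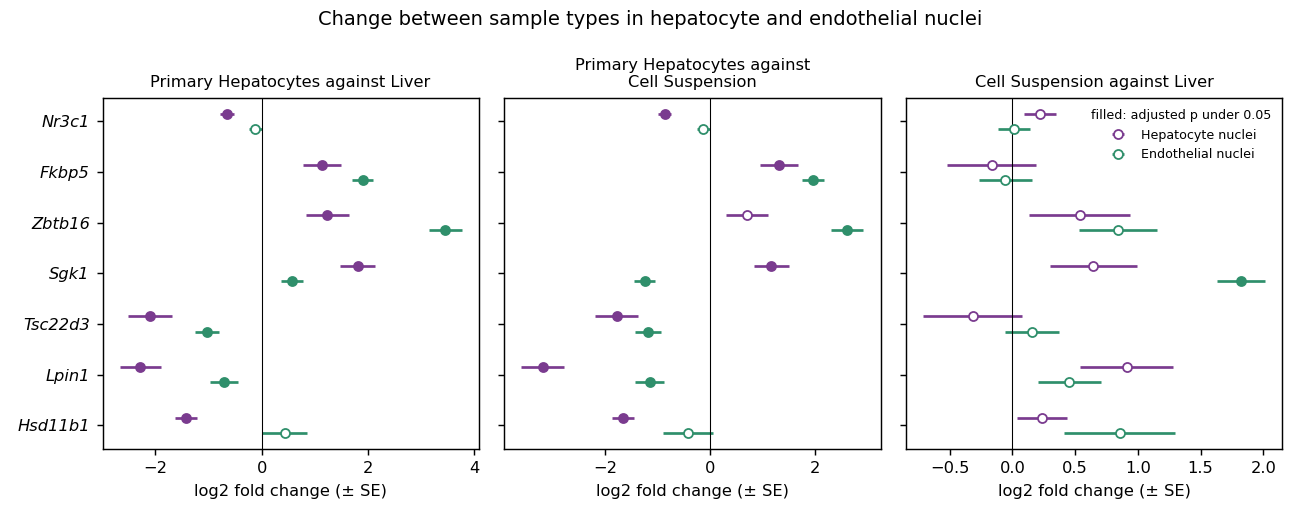
Log2 fold changes of the 7 genes (horizontal axis) in hepatocyte nuclei (purple) and endothelial nuclei (green), 1 panel for each of the 3 comparisons. Points are edgeR estimates, bars are ± 1 SE, and filled points passed the adjusted threshold. Fkbp5 and Zbtb16 were higher and Tsc22d3 and Lpin1 lower than in Liver in both cell types after culture, Sgk1 was higher in endothelial Cell Suspension, and 0 hepatocyte points are filled for Cell Suspension against Liver.

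Endothelial nuclei, the largest other population carried through culture, showed the rise of Fkbp5 and Zbtb16 without overlap. Of the 1809 endothelial nuclei of Primary Hepatocytes, 1733 lay in 1 of the authors' clusters, which held 2 Liver and 26 Cell Suspension nuclei. Cultured and uncultured endothelial nuclei were thus mostly compared between different clusters. Against Liver 5 of 7 genes passed, 3 higher and 2 lower, where 33.8% of all 18279 genes tested did. Against Cell Suspension 5 of 7 passed, 2 higher and 3 lower, where 20% did, and from Liver to Cell Suspension 1 passed (Sgk1), where 3.90% did. Endothelial markers, all 10 detected, summed to 12701 to 15703 CPM in Liver, 9232 to 14483 in Cell Suspension and 5094 to 8584 in Primary Hepatocytes. Hepatocyte markers in the same nuclei, also all 10 detected, summed to 2735 to 6134, 2399 to 8520 and 1679 to 5562 CPM, and the part of hepatocyte RNA in the endothelial values was not tested.

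Endothelial Fkbp5 ran from 126 to 244 CPM in Liver (median 155), 115 to 230 CPM in Cell Suspension (median 152), and 252 to 961 CPM after culture (median 593). It was 3.74-fold higher than in Liver (1.903 ± 0.197, edgeR adjusted p = 1.27e-10). Endothelial Zbtb16 ran from 40.4 to 310 CPM in Liver (median 81.6), 49.1 to 446 CPM in Cell Suspension (median 187), and 645 to 1870 CPM after culture (median 1072). No cultured sample of either gene overlapped an uncultured one, and 8 of 8 mice showed both rises. The Zbtb16 rise was 10.9-fold over Liver (3.45 ± 0.31, edgeR adjusted p = 3.25e-12), and the 2 shared pools gave 3.66 and 3.79. Free RNA held 373 to 1344 CPM of Zbtb16 and 82.1 to 292 CPM of Fkbp5 by pool. For Zbtb16 it was highest in the pool with the cultured samples of mice 1, 5 and 6, which stood at 1538, 1870 and 1859 CPM. The part of free RNA in both endothelial rises was not tested. Zbtb16 passed from Liver to Cell Suspension only with the mouse as replicate block (0.88, adjusted p = 0.0106), without mouse 8 (1.00, adjusted p = 0.034), without mice 2 and 8 (1.13, adjusted p = 0.0187) or with no filter on low counts (0.83, adjusted p = 0.0313), against 0.84 ± 0.31 (adjusted p = 0.130) otherwise.

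Endothelial Sgk1 had its highest level in the Cell Suspension. It ran from 80.0 to 103 CPM in Liver, from 135 to 476 in Cell Suspension and from 74.1 to 287 in Primary Hepatocytes, with medians of 84.6, 292 and 121. All 8 Cell Suspension samples lay above all Liver samples and above the cultured sample of the same mouse. The rise from Liver to Cell Suspension was 3.54-fold (1.82 ± 0.19, edgeR adjusted p = 5.57e-09), and was positive in 4 of 4 pools, from 0.71 to 2.28. From Cell Suspension to Primary Hepatocytes Sgk1 was 2.38-fold lower (−1.25 ± 0.20, adjusted p = 4.27e-06). That call was lost on spliced UMIs. The remaining difference between Primary Hepatocytes and Liver, 0.57 ± 0.20 (adjusted p = 0.0245), did not pass without mouse 1 (0.50, adjusted p = 0.066) or mouse 7 (0.40, adjusted p = 0.102), on unspliced UMIs (0.34), with pool as a covariate (0.40), in nuclei of high hashtag margin (0.29) or without mice 2 and 8 (0.62, adjusted p = 0.0563), and differed in sign between the 2 shared pools (−0.29 and 0.27).

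Of the other endothelial values, Tsc22d3 was lower in Primary Hepatocytes (22.8 to 88.0 CPM) than in Liver (57.7 to 211 CPM), by −1.03 ± 0.23 (edgeR adjusted p = 0.000375), with values of 0.57 and −0.65 in the shared pools. With pool as a covariate the fall was −0.55 (edgeR adjusted p = 0.195), and Tsc22d3 was called in 9 of 12 other settings. Lpin1 stood at 62.4 to 200 CPM in Liver and 39.9 to 92.0 CPM after culture (−0.70 ± 0.27, adjusted p = 0.0359). That call was lost with DESeq2 (−0.51, adjusted p = 0.226), under 7 other settings, and without any 1 of mice 1, 2, 5, 6 or 8. Nr3c1 ran from 331 to 372 CPM in Liver, 281 to 429 in Cell Suspension and 248 to 394 in Primary Hepatocytes, and neither it nor Hsd11b1, at 0 to 38.4 CPM over the 24 samples, passed in any of the 3 comparisons.

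The difference between the cell types was tested directly. For Primary Hepatocytes against Liver, the change in hepatocyte nuclei differed from that in endothelial nuclei for 4 of 7 genes, where 38.4% of 18212 genes tested did. Sgk1 rose more in hepatocyte nuclei, by 1.54 ± 0.36 on the log2 scale (edgeR adjusted p = 0.000461), and Zbtb16 less, by −1.84 ± 0.24 (1.33e-08). Lpin1 fell further in hepatocyte nuclei (−1.14 ± 0.28, adjusted p = 0.0008), and for Hsd11b1 the difference was −1.48 ± 0.44 (0.0057). The endothelial side of the Hsd11b1 value rests on 50 spliced and 5 ambiguous UMIs in Liver, and 28 and 3 in Primary Hepatocytes. Free RNA held 10.2 to 33.5 CPM of Hsd11b1 by pool, and its part in this difference was not tested. For Primary Hepatocytes against Cell Suspension the differences were −0.62 ± 0.15 for Nr3c1 (adjusted p = 0.0015), 2.41 ± 0.36 for Sgk1 (7.55e-07), −1.68 ± 0.24 for Zbtb16 (2.87e-07) and −1.94 ± 0.29 for Lpin1 (5.76e-07), 4 of 7 where 28.8% of genes passed. From Liver to Cell Suspension 0 of 7 differed with edgeR under TMM and 0 under RLE, where 3.87% of genes did, with 3 genes (Nr3c1, Sgk1 and Lpin1) at an unadjusted p under 0.05. The Sgk1 change against Cell Suspension passed in opposite directions, up in hepatocyte and down in endothelial nuclei, the latter not on spliced UMIs. Fkbp5 differed in neither culture comparison beyond the threshold.

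Across cell types the order of levels differed from gene to gene, here in CPM on unscaled totals for samples of at least 10 nuclei. In Liver, Nr3c1 had medians of 503 CPM in leukocyte, 464 in Kupffer, 372 in stellate, 346 in hepatocyte, 336 in endothelial and 231 in biliary nuclei. The ranges of neighbours in that order overlap, except that biliary nuclei (146 to 256) lay below all endothelial samples (327 to 375). Sgk1 followed another order, with medians of 80.0 in endothelial, 64.6 in Kupffer, 52.4 in stellate, 20.7 in leukocyte, 9.37 in biliary and 6.89 in hepatocyte nuclei. The lowest endothelial sample (77.2 CPM) lay above the highest hepatocyte sample (13.8), and hepatocyte and biliary ranges overlap.

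Zbtb16 medians in Liver were 526 CPM in leukocyte, 508 in biliary, 351 in stellate, 286 in hepatocyte, 79.0 in endothelial and 76.1 in Kupffer nuclei. All neighbours in that order overlap in range, hepatocyte (117 to 1181) and endothelial (39.8 to 292) included. Lpin1 had its highest Liver median in hepatocyte nuclei (278 CPM, range 132 to 1098), followed by leukocyte (117), Kupffer (111), endothelial (93.7), stellate (64.7) and biliary nuclei (41.7), with overlap at each step. Hsd11b1, counted without unspliced UMIs, had medians of 21.2 in leukocyte, 20.4 in stellate and 14.5 in hepatocyte nuclei. In endothelial, Kupffer and biliary nuclei they were 5.84, 5.29 and 0. Liver leukocyte sums held 42740 to 302524 UMIs per sample and biliary sums 23084 to 201951, so their Hsd11b1 medians rest on few UMIs. Free RNA held 10.2 to 33.5 CPM of Hsd11b1 by pool, and its part in these levels was not tested. Tsc22d3 medians lay between 24.9 (stellate) and 101 (hepatocyte), and Fkbp5 medians between 65.4 (biliary) and 153 (endothelial), with overlapping neighbours in both.

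**Figure D3:**
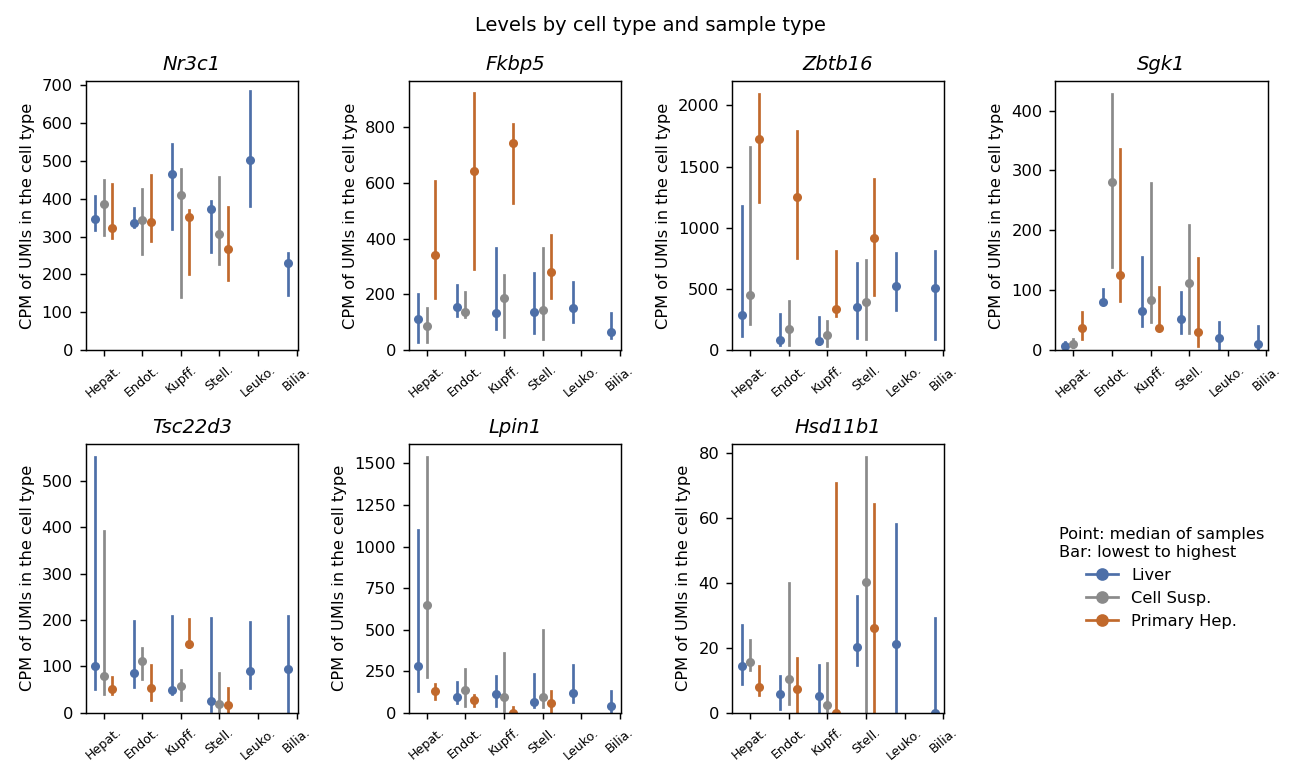
Levels of the 7 genes by cell type and sample type, in CPM on unscaled totals (vertical axis of each panel, from 0). Points are medians over samples of at least 10 nuclei, shown where there were 3 or more, and bars run from the lowest to the highest sample. Cultured endothelial nuclei (756 to 1792 CPM of Zbtb16) stand clear of uncultured ones (39.8 to 402), and Sgk1 in Liver is higher in endothelial than in hepatocyte nuclei.

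Kupffer and stellate nuclei were tested from Liver to Cell Suspension, and no culture comparison was fitted for them. In both, 0 of 7 genes passed with edgeR, where 1.30% of 13819 and 3.19% of 13516 genes tested did. At an unadjusted p under 0.05 there were 0 genes in Kupffer and 3 in stellate nuclei (Nr3c1, Sgk1 and Lpin1), and 0 passed with RLE scaling or with the mouse as replicate block, while DESeq2 was not run there. Stellate Sgk1 stood at 32.4 to 108 CPM in Liver and 24.3 to 209 in Cell Suspension (0.75 ± 0.34, adjusted p = 0.236), the same sign as in endothelial nuclei. Kupffer Sgk1 stood at 37.3 to 165 and 48.6 to 201 CPM (0.47 ± 0.28, adjusted p = 0.527).

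Kupffer and stellate nuclei of Primary Hepatocytes samples are described without a test. The 77 Kupffer nuclei there all carried the authors' annotation of uncultured Kupffer cells, and whether their hashtag placed them in the wrong sample was not tested. In the 3 samples that held at least 10 of them, Fkbp5 stood at 529 to 810 CPM on unscaled totals, above all 8 Liver samples (75.4 to 367). Stellate Fkbp5 ran from 189 to 414 CPM in culture and from 61.1 to 277 in Liver, and stellate Zbtb16 from 454 to 1402 in culture and from 97.4 to 714 in Liver. In cultured stellate nuclei the stellate markers summed to 4210 to 7337 CPM, against 21933 to 30398 in Liver, and Kupffer markers in these Kupffer nuclei to 1046 to 2363 against 4493 to 7544. The cultured cluster that gave 175 of the 192 stellate nuclei of Primary Hepatocytes also held 933 CPM of endothelial markers, against 349.7 CPM in the authors' stellate cluster. Free RNA of Fkbp5, at 82.1 to 292 CPM by pool, lay below these Kupffer levels, and that of Zbtb16 reached 1344 CPM in a pool with 3 cultured samples. Its part in these levels was not tested.

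Unspliced RNA, which marks recent transcription, and spliced RNA did not always change alike. In Liver hepatocyte nuclei 89.4% of Nr3c1 UMIs were unspliced, 90.4% of Fkbp5, 95.0% of Zbtb16, 86.2% of Tsc22d3, 75.5% of Lpin1 and 59.7% of Sgk1, against 74.2% over all genes. Hsd11b1, with 0 unspliced UMIs, could not be tested. In Primary Hepatocytes the shares were 83.2%, 87.2%, 91.7%, 88.2%, 58.4% and 43.0% for the same genes in the same order, against 64.0% over all genes. Tsc22d3 was the 1 gene of these 6 with a higher mean share in Primary Hepatocytes than in Liver (SD 2.62 and 4.72, n = 8).

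The difference between the unspliced and the spliced change was then tested relative to all genes. For Primary Hepatocytes against Liver 2 of 6 genes passed, where 29.3% of 16996 genes tested did. Unspliced Lpin1 fell further than spliced Lpin1 (−0.73 ± 0.15, edgeR adjusted p = 0.000217), and unspliced Tsc22d3 fell less than its spliced RNA (0.75 ± 0.16, adjusted p = 0.000261). Against Cell Suspension the same 2 genes passed (Lpin1 −1.35 ± 0.16, adjusted p = 1.01e-09, and Tsc22d3 0.51 ± 0.17, adjusted p = 0.0214), where 25.0% did. From Liver to Cell Suspension Lpin1 passed, and its unspliced RNA rose more than its spliced RNA (0.62 ± 0.15, adjusted p = 0.0021), where 22.1% of genes passed. The Lpin1 values passed without any 1 mouse. Those of Tsc22d3 did not pass against Liver without mouse 1, 4 or 5 (lowest 0.31, adjusted p = 0.115), nor against Cell Suspension without mouse 1, 3, 4, 5 or 8 (lowest 0.03, adjusted p = 0.929) or under RLE scaling (0.41, adjusted p = 0.0683). Zbtb16 (−0.47, adjusted p = 0.0986) passed against Cell Suspension under RLE scaling (−0.58, adjusted p = 0.0394) and in 5 of 8 fits that left out 1 mouse, without mouse 1, 3, 4, 5 or 6. Nr3c1 (−0.16, adjusted p = 0.378) passed there in 4 of 8, without mouse 1, 3, 4 or 5. Against Liver, Nr3c1 and Zbtb16 each passed in 4 of these 8 fits and Sgk1 in 1. Leaving out mice moved the median of all genes between −0.25 and 0.06 in the first comparison, and relative to that median Tsc22d3 stayed between 0.55 and 0.77.

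In uncultured hepatocyte nuclei several of the genes followed the lobule axis. Nuclei were ranked within each sample by a score of pericentral over periportal marker genes, and the tertiles at both ends were compared within mice, with the mouse as a term. None of the 7 genes is in the score. Its periportal list holds Pck1, which is also among the glucocorticoid-induced genes listed below, and the effect of Pck1 on the ranking was not tested. The median score of Liver samples, a log2 ratio, ran from −1.14 to 0.81 in the pericentral tertile. In the periportal tertile it ran from −4.32 to −3.70. Below 0 the periportal list had more UMIs, so the tertiles are named by rank only. In Liver 3 of 7 genes were lower in the pericentral tertile, where 20.2% of 22204 genes tested differed. Hsd11b1 stood at 9.42 ± 2.99 CPM in the pericentral and 20.7 ± 6.28 CPM in the periportal tertile (SD, n = 8), a difference of −1.11 ± 0.09 (SE, edgeR adjusted p = 3.75e-11). Lpin1 stood at 342 ± 276 and 511 ± 398 CPM (−0.64 ± 0.06, adjusted p = 1.03e-09), and Sgk1 at 5.22 ± 2.86 and 9.21 ± 6.23 CPM (−0.85 ± 0.16, adjusted p = 8.67e-05).

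In Cell Suspension 3 of 7 genes were lower in the pericentral tertile, where 19.5% of 19853 genes differed. Hsd11b1 (11.0 ± 4.77 and 21.6 ± 5.24 CPM) differed by −1.08 ± 0.15 (edgeR adjusted p = 4.22e-10), Lpin1 by −0.49 ± 0.09 (adjusted p = 4.98e-06) and Nr3c1 (336 ± 69.5 and 412 ± 80.9 CPM) by −0.30 ± 0.09 (adjusted p = 0.00963). Sgk1 gave −0.45 there (adjusted p = 0.0613). The Nr3c1 call was lost without mouse 6 (−0.23, adjusted p = 0.0872). These calls rest on the pairing of both ends within a mouse. Without the replicate block only Hsd11b1 passed in either sample type, and Lpin1 in Liver gave −0.58 (adjusted p = 0.653), Sgk1 in Liver −0.88 (0.320), Lpin1 in Cell Suspension −0.47 (0.580) and Nr3c1 in Cell Suspension −0.29 (0.383). Both ends come from the same sample, so the fit without the block does not test the pattern within mice. With the block, Hsd11b1 and Lpin1 in both sample types and Sgk1 in Liver passed in 8 of 8 fits that left out 1 mouse.

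Mouse-to-mouse differences in the targets were large and were shared by Liver and Cell Suspension of the same mouse. Over 8 mice, the hepatocyte levels in the 2 sample types, as log2(CPM + 1), correlated for Tsc22d3 (Pearson's r = 0.98, Spearman's rho = 0.90, exact permutation p of r adjusted over 21 relations = 0.00469), Sgk1 (0.96, 0.95, exact permutation p = 0.00365), Lpin1 (0.94, 0.95, 0.00612), Fkbp5 (0.94, 0.90, 0.00612) and Zbtb16 (0.94, 0.93, 0.00646). Without the 2 mice farthest from the median in Liver, r was 0.881, 0.893, 0.901, 0.996 and 0.760 in the same order. This sharing is not particular to these genes, since over 8617 genes the deviations of the 2 samples of a mouse from their group means correlated with r from 0.34 to 0.85 (median 0.67). For Nr3c1 (r = 0.46) and Hsd11b1 (r = 0.66) the relation did not pass. The Liver and Cell Suspension samples of mice 2 and 8 had been run in 4 different pools, and no pool held enough mice to give the relation within it.

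After culture that relation was not found. Between Liver and Primary Hepatocytes of the same mouse, r lay between −0.51 and 0.24 for the 7 genes, none past the threshold. Between Cell Suspension and Primary Hepatocytes the only relation that passed was for Hsd11b1, and it was negative (r = −0.84, rho = −0.98, exact permutation p of r adjusted = 0.0268, r = −0.68 without the 2 farthest mice). Zbtb16 spanned 125 to 1263 CPM over the 8 Liver samples and 907 to 1663 CPM over the cultured ones, and Lpin1 157 to 1217 and 65.1 to 139 CPM. Several of the authors' clusters of uncultured hepatocytes came almost wholly from 1 mouse, such as 3 Liver clusters with 99.7%, 97.9% and 95.3% of their nuclei from mice 5, 3 and 6.

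**Figure D4:**
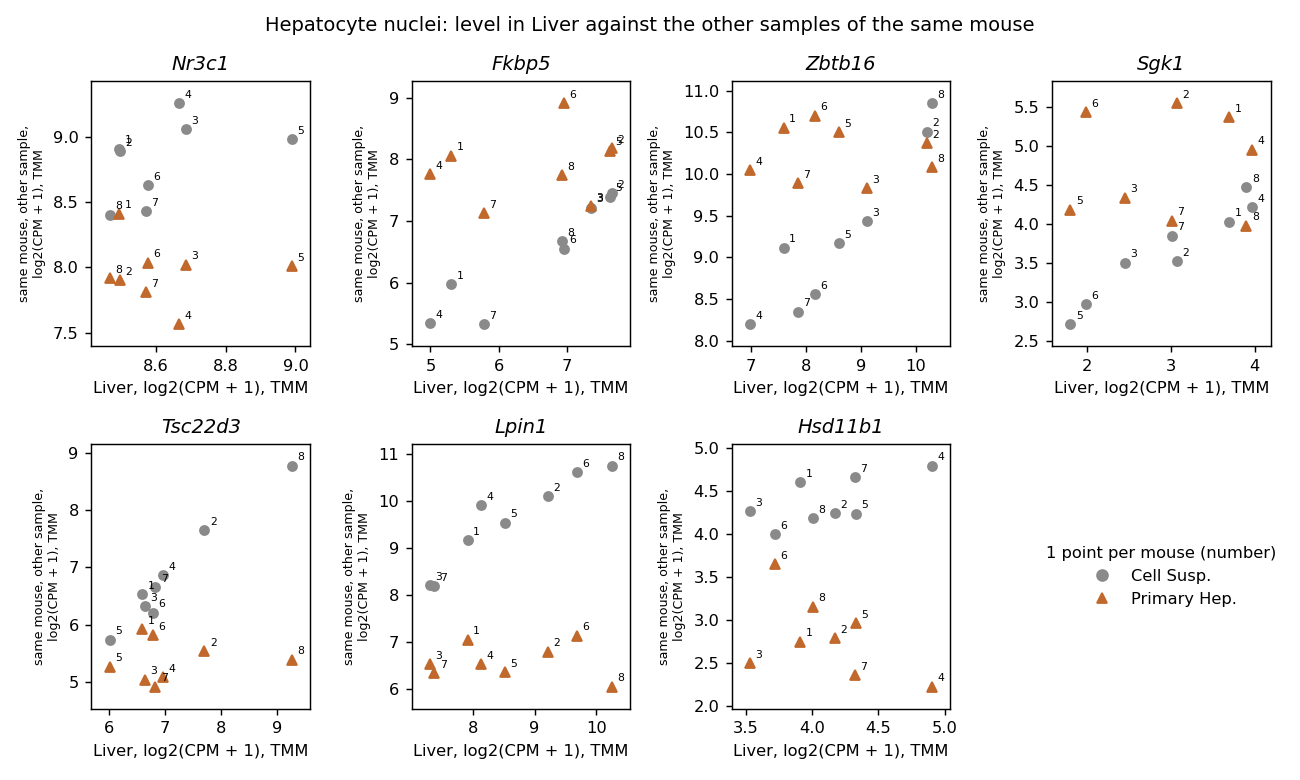
Log2(CPM + 1), TMM-scaled, of each gene in hepatocyte nuclei of Liver (horizontal axis) against the same mouse's Cell Suspension (grey circles) and Primary Hepatocytes (orange triangles), 1 panel per gene, 8 mice. For Fkbp5, Tsc22d3, Sgk1, Zbtb16 and Lpin1 the grey points rise with the Liver level (r from 0.94 to 0.98), while for the orange points r lay between −0.51 and 0.24 for the 7 genes.

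For each gene, the 3 most similar of 8617 genes of at least 10 CPM were found by Pearson's r of log2(CPM + 1) over the 24 hepatocyte sums, which share mice and pools. They are a description with no test. Nr3c1 was most like Trpm7 (0.967), Mon2 (0.962) and Ncoa1 (0.944), Fkbp5 like Nucks1 (0.868), Gm48199 (0.856) and Plce1 (0.835), and Tsc22d3 like Fmo5 (0.936), Cyp39a1 (0.921) and Tob2 (0.905). Sgk1 was most like Atad2 (0.857), Tmem184b (0.853) and Iffo2 (0.848), Zbtb16 like Serinc3 (0.835), Yod1 (0.810) and Tmc7 (0.806), Lpin1 like Mfsd2a (0.956), Zpr1 (0.947) and Baz1b (0.939), and Hsd11b1 like Cryl1 (0.966) and Serpina1d (0.956). No other member was among the 3 nearest genes of any member.

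The rest of the pathway was described by 5 lists of genes chosen by name in hepatocyte nuclei, beside a median log2 fold change of all genes of 0.10 (Primary Hepatocytes against Liver), 0.02 (against Cell Suspension) and 0.02 (Cell Suspension against Liver). Over all genes 27.4% rose and 26.3% fell from Liver to Primary Hepatocytes, 26.9% and 23.5% from Cell Suspension to Primary Hepatocytes, and 8.15% and 14.2% from Liver to Cell Suspension. Of 11 chaperones of the receptor, 5 rose and 2 fell from Liver to Primary Hepatocytes, with a list median of 0.27 (1 fell without TMM). The 63.6% that passed is near the 53.7% of all genes. The Hsp90 genes that hold the unbound receptor were among those that rose, Hsp90aa1 from 17.5 ± 8.59 to 155 ± 35.1 CPM (SD, n = 8; 3.16 ± 0.23 SE, edgeR adjusted p = 5.18e-13) and Hsp90ab1 by 1.22 (1.75e-06). Hspa8, a constitutive Hsp70, rose by 1.33 (1.37e-08), and Ppp5c, a phosphatase bound to Hsp90, fell by 1.02 on the log2 scale. Hspa8 stood at 391 CPM in Cell Suspension, above both Liver (61.9) and Primary Hepatocytes (155).

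Of 10 coregulators, 1 rose and 8 fell, with a list median of −0.50. Ncoa1, Ncoa2 and Ncoa3, the steroid receptor coactivators, stood at −0.91, −0.85 and −0.89, and Nrip1, a corepressor, rose by 0.79 (edgeR adjusted p = 2.81e-05). Without TMM 4 fell and 3 rose, and on spliced UMIs alone 2 fell and 2 rose. Of 8 genes of steroid handling 0 rose (1 without TMM) and 6 fell, with a median of −3.47. They include Akr1c6 (858 to 15.4 CPM, −5.80, adjusted p = 6e-16) and Akr1d1 (287 to 5.57 CPM, −5.69, 6.23e-20), reductases of steroids, Serpina6, the corticosteroid-binding globulin (60.0 to 2.11 CPM, −4.83, 3.79e-15), and Cyp3a11, a steroid hydroxylase (334 to 28.6 CPM, −3.54, 1.71e-08).

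Of 22 other genes known to be induced by glucocorticoids, 16 rose and 0 fell from Liver to Cell Suspension (median 1.15), where 0 of the 7 members passed. From Liver to Primary Hepatocytes 9 rose and 9 fell (median −0.12), and from Cell Suspension to Primary Hepatocytes 3 rose and 12 fell (median −1.14). Pck1, which encodes the rate-limiting enzyme of gluconeogenesis, went from 1360 ± 471 CPM in Liver to 3777 ± 663 in Cell Suspension and 32.8 ± 9.28 in Primary Hepatocytes (SD, n = 8; −5.37 ± 0.25 SE against Liver, edgeR adjusted p = 9.47e-18). The metallothioneins Mt1 and Mt2, which bind zinc, went from 16.1 and 2.40 CPM in Liver to 384 and 53.3 in Cell Suspension and 578 and 170 in Primary Hepatocytes, with changes from Liver of 5.18 and 6.14 (adjusted p = 3.1e-08 and 1.33e-09). Cdkn1a, a cell cycle inhibitor, rose from 1.25 to 87.4 CPM (6.06, adjusted p = 4.39e-16).

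Of 10 genes known to be repressed by glucocorticoids, 7 rose and 0 fell from Liver to Primary Hepatocytes (median 2.71), where 53.7% of all genes passed, and 3 rose on unspliced UMIs alone. In the same list 4 rose and 0 fell from Liver to Cell Suspension (median 1.21). Ccl2 and Cxcl2, chemokines that recruit monocytes and neutrophils, rose from 0.121 and 0.326 CPM in Liver to 19.6 and 19.1 CPM after culture. Cultured endothelial nuclei held more of both, 71.6 and 92.3 CPM, and the part of free RNA in the hepatocyte values was not tested. Icam1, an adhesion molecule, rose from 4.34 to 25.0 CPM (2.52, edgeR adjusted p = 2.61e-08). Cxcl1, also a neutrophil chemokine, peaked in Cell Suspension (20.6, 168 and 64.7 CPM), and its difference between Primary Hepatocytes and Liver (1.64, adjusted p = 0.00126) was 1.05 with pool as a covariate (adjusted p = 0.159). Ccl2 and Cxcl2 changes of 6.90 and 5.69 became 8.69 and 6.76 without mouse 5.

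**Figure D5:**
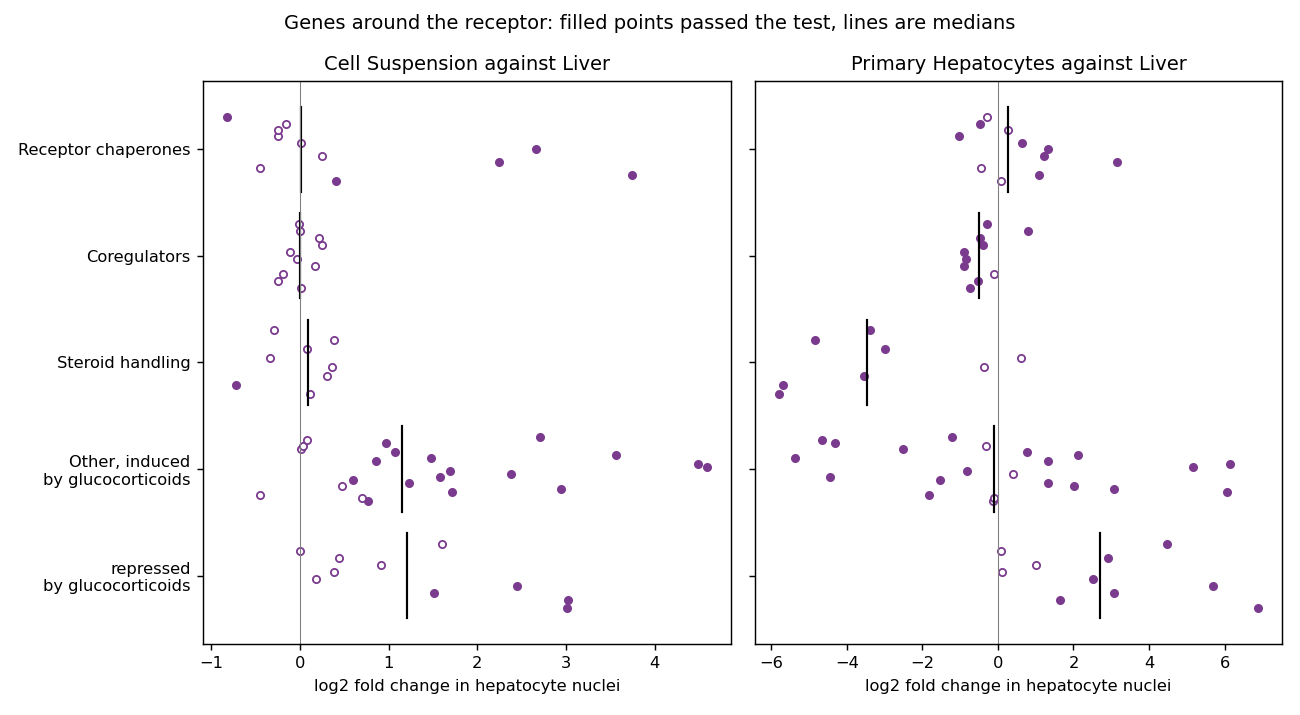
Log2 fold changes in hepatocyte nuclei of the genes of the 5 lists (horizontal axis), from Liver to Cell Suspension and from Liver to Primary Hepatocytes. Each point is 1 gene, filled where it passed the adjusted threshold, and the line is the list median. The induced genes have a median of 1.15 in Cell Suspension and −0.12 in Primary Hepatocytes, and steroid handling a median of −3.47 after culture.

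In endothelial nuclei, of the 22 other induced genes 13 rose and 0 fell from Liver to Cell Suspension (median 1.38), and 13 rose and 5 fell from Liver to Primary Hepatocytes (median 1.24), beside medians over all genes of −0.08 and −0.01. From Cell Suspension to Primary Hepatocytes 7 rose and 6 fell (median −0.16, all genes 0.07). The difference from hepatocyte nuclei was not tested for this list. Over all genes 2.03% rose and 1.87% fell in the first comparison and 15.4% and 18.4% in the second, and 20% passed in the third. Of the 6 repressed genes that could be tested there, 4 rose and 1 fell after culture.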

How the data were processed

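Each of 6 pools of 4 hashtagged nucleus samples gave an RNA and a hashtag library. The authors quantified spliced, unspliced and ambiguous RNA against GRCm38 with Salmon alevin and alevin-fry, assigned nuclei to samples by mclust and removed doublets with scDblFinder. As deposited, the matrices give unnormalized UMI counts for every gene in every barcode. The authors' table of nuclei holds counts per nucleus, a hashtag margin as a fraction, and labels of sample, cluster and cell type. The hashtag CD2 was taken to be mouse 2's Cell Suspension, and the hashtag matrices were not used. Clusters the authors name only as cultured were named by the non-hepatocyte marker list that lay furthest above its median among clusters, where that was over 5 times (endothelial or stellate), and hepatocyte otherwise. No nucleus was removed.

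The 3 splicing states were added and summed per sample and cell type. Genes with a total of 10 counts or more were fitted in edgeR 4.0.16 (R 4.3.3; TMM, quasi-likelihood, 1 coefficient per sample type, all sample types in 1 fit), adjusted by Benjamini-Hochberg and called at 0.05. Each SE was derived from the log2 fold change and its F statistic. Kupffer and stellate fits used samples of at least 10 nuclei and no cultured samples. Zonation used nuclei of at least 1000 UMIs and a mouse term. Correlations over mice used exact permutation tests, two-sided. The script was tested on simulated data. DESeq2 1.42.0 was an alternative, with others on scaling, filters, splicing state, pairing, pool, depth, nuclei and each mouse left out. Leaving out mice 2 and 8, leaving out 1 cluster of low UMI counts and using library totals without TMM were chosen after seeing the data.

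Same-numbered samples share a liver, per the study's methods. Over 8617 genes, deviations from group means correlated between Liver and Cell Suspension of the same mouse (median r = 0.67) and not of other mice (−0.08). The medians were 0.04 for Liver and Primary Hepatocytes and 0.02 for Cell Suspension and Primary Hepatocytes.

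Members and lists were chosen with earlier results of these data known. Named are the 7 members, from each list up to 4 called genes of at least 10 CPM with the largest change from Liver to Primary Hepatocytes, list genes that the study names, and the 3 most similar genes of each member, of which 1 for Hsd11b1 is not reported here. SEs of the comparisons of sample types reflect the spread between samples of the same type, over the 8 mice. Zonation fits carry a mouse term, and the tests between cell types or splicing states a sample term. Their SEs therefore reflect the spread left within mice or samples.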

Additional observations from a re-analysis of the deposited data

Results flagged for a closer look

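Single samples that stand apart from their group were looked for with Dixon's test in 70 groups of a gene, cell type and sample type, on TMM-scaled CPM. For independent, normally distributed values chance gives about 1 such group in 20. CPM are skewed and the groups share mice, so the 14 found are not read against that rate. Tsc22d3 of mouse 8 accounts for 5 of them. Its Liver sample was the highest in hepatocyte (612 CPM), endothelial (211 CPM), Kupffer (222 CPM) and stellate nuclei (228 CPM), and its Cell Suspension sample was the highest in hepatocyte nuclei (435 CPM). Zbtb16 in Kupffer nuclei was also highest in the Liver sample of mouse 8 (286 CPM), whereas Nr3c1 in stellate nuclei was lowest there (290.01 CPM).

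In hepatocyte nuclei, Nr3c1 stood at 507 CPM in the Liver sample of mouse 5, Fkbp5 at 481 CPM in the Primary Hepatocytes of mouse 6, and Hsd11b1 at 29.0 CPM in the Liver sample of mouse 4, each the highest of 8. Endothelial Sgk1 was highest in the Primary Hepatocytes of mouse 7 (287 CPM). In Kupffer nuclei, Nr3c1 was lowest in the Liver sample of mouse 6 (298 CPM), Sgk1 highest in that of mouse 2 (165 CPM) and Lpin1 highest in the Cell Suspension of mouse 4 (333 CPM).

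The other results singled out are genes whose log2 change in hepatocyte nuclei differed from that in endothelial nuclei in the direct test. For Primary Hepatocytes against Liver the differences were 1.54 for Sgk1, −1.84 for Zbtb16, −1.14 for Lpin1 and −1.48 for Hsd11b1. The Hsd11b1 value rests on few endothelial UMIs. For Primary Hepatocytes against Cell Suspension they were −0.62 for Nr3c1, 2.41 for Sgk1, −1.68 for Zbtb16 and −1.94 for Lpin1.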

How the results depend on the processing

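In hepatocyte nuclei, the 7 calls between Primary Hepatocytes and Liver became 5 with pool as a covariate (Fkbp5 and Zbtb16 lost) and 6 on spliced UMIs or without TMM (Nr3c1 lost), and on unspliced UMIs all 6 genes that could be tested passed, Hsd11b1 having none. From Liver to Cell Suspension 1 of 7 genes passed in place of 0 with filterByExpr, spliced UMIs, unspliced UMIs or the mouse as replicate block. The same count was found with mice 2 and 8 left out and in all nuclei. The gene was not the same throughout, with Lpin1 called in 3 of these settings, Nr3c1 in 2 and Sgk1 in 1. In endothelial nuclei, the 5 calls between Primary Hepatocytes and Liver became 3 on spliced UMIs, 2 with pool as a covariate, 3 on sums thinned to the smallest and 3 without mice 2 and 8. The 5 against Cell Suspension became 2 on spliced UMIs, and the 1 from Liver to Cell Suspension became 2 with no filter, with the replicate block and without mice 2 and 8. Without the replicate block the zonation calls went from 3 to 1 in Liver and from 3 to 1 in Cell Suspension. With the replicate block the calls gained were hepatocyte Lpin1 (0.99, adjusted p = 0.00413) and endothelial Zbtb16 (0.88, adjusted p = 0.0106) from Liver to Cell Suspension and hepatocyte Zbtb16 between Primary Hepatocytes and Cell Suspension (1.12, adjusted p = 0.000944), and the block changed no other call of the 7 genes.

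Leaving out 1 mouse at a time gave 7 calls each time for hepatocyte Primary Hepatocytes against Liver, 6 to 7 against Cell Suspension and 0 to 1 from Liver to Cell Suspension (1 without mouse 8). The endothelial ranges were 3 to 5 (3 without mouse 1), 5 to 5 and 1 to 2 (2 without mouse 8). For unspliced against spliced RNA they were 2 to 4 (4 without mouse 1 or mouse 3), 1 to 3 (1 without mouse 8) and 1 to 1. For hepatocyte against endothelial changes they were 4 to 6, 4 to 6 and 0 to 0, and for zonation 3 to 4 in both sample types.

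Among the lists, coregulators that rose went from 1 to 2 (spliced UMIs) and 3 (without TMM), and those that fell from 8 to 2 (spliced UMIs), 5 (thinned), 4 (without TMM) and 5 (all nuclei). Repressed genes that rose went from 7 to 3 on unspliced UMIs, and those that fell from 0 to 1 in all nuclei. Chaperones that fell went from 2 to 1 when thinned, with the hashtag margin at or above the median, without TMM and in all nuclei, and steroid handling genes that rose from 0 to 1 with that margin and without TMM.

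The changes of single genes were followed for the hepatocyte comparisons, the endothelial culture comparisons, endothelial Sgk1 and Zbtb16 from Liver to Cell Suspension, and genes called elsewhere. Among these, sign changed for values that passed under no setting: hepatocyte Fkbp5 from Liver to Cell Suspension (0.0873 on spliced UMIs), endothelial Nr3c1 against Liver (0.0486 with RLE, 0.0402 with DESeq2, 0.0619 with filterByExpr, 0.0704 on spliced UMIs, 0.312 thinned, 0.0369 without TMM) and against Cell Suspension (0.0629 without TMM), and endothelial Hsd11b1 against Liver (−0.113 on spliced UMIs). In all nuclei, hepatocyte Sgk1 against Cell Suspension became 0.10 (adjusted p = 0.816). For counts, 437 alternatives stayed within 1.5 times the reported value and 36 did not, and for the single genes followed 1409 kept direction and side of the threshold, 47 lost and 16 gained a call, and 9 changed sign. Other uncalled values were not counted and some also changed sign, such as the hepatocyte against endothelial change of Fkbp5 from Liver (−0.92 to 0.0031 over the mice left out, called in 1 of 8). The causes were not tested. In stellate nuclei, 28.3% of called genes were higher in Cell Suspension under TMM and 86.3% under RLE, with 0 of the 7 genes called under either. The smallest sample sum was 95289 UMIs in endothelial and 27630 in stellate nuclei against 2104087 in hepatocyte nuclei.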
